A study of Mus musculus with 2 samples.

Results

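Macrophages and monocytes of the mouse colon were taken from 2 single-cell libraries, 1 of wild-type mice (WT) and 1 of a transgenic Alzheimer's disease model (AD, named APP/PS1-21 in the design text). They were chosen by measured UMIs (unique molecular identifiers, the count of distinct RNA molecules of a gene in a cell). A member had at least 3 of 10 macrophage genes detected (C1qa, C1qb, C1qc, Csf1r, Adgre1, Cd68, Lyz2, Ms4a7, Fcgr1 and Mrc1), at least 1 of them from the first 5. It had no UMI of Cd3d, Cd3e, Cd3g or Ms4a1 and none of Flt3, Xcr1 or Zbtb46, and under 0.3% of its UMIs came from 6 epithelial genes. The rule was met by 34 of 1550 kept WT barcodes and by 136 of 4691 kept AD barcodes, 170 of 6241 in all. A barcode was kept where it showed 200 or more genes and no more than 25% of its UMIs were mitochondrial, out of 10821 in the files.

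Per the labels, minced colon tissue was broken up with trypsin plus DNase I, and 10x libraries were then made. Genotype is the only difference the labels give between the groups. Age, sex, the number of animals behind each library, and the promoter and cell type that drive the transgenes are not given in the sources used here. With 1 library per genotype there is no replicate, so no test between genotypes was possible, and every difference is one between these 2 libraries. Pairs of values stand in the order WT, AD. Intervals are exact at 95% and cover counting error only.

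Macrophages of the gut wall are replenished to a large extent by blood monocytes that enter through the chemokine receptor Ccr2 and mature in the tissue. They live on signals through Csf1r, take up dying cells and microbes, present peptides on MHC class II and are held in a restrained state by IL-10. Long-lived resident subsets lie near vessels, nerves and muscle, and some of these carry the haemoglobin scavenger receptor Cd163.

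Members held 196382 UMIs in the WT and 589112 in the AD library, with medians of 4703.5 and 3355 UMIs, 1849.5 and 1567.5 genes, and 7.72% and 8.08% mitochondrial UMIs per cell. The files list 33083 genes, of which 6992 had 0 UMIs in both whole libraries. Ms4a1 was among these, so the B cell condition of the rule removed no barcode. B2m, which nearly all cells use, was another, as were Ccl2, Ccl6, Ms4a6c, Myd88 and Hif1a, so nothing is read from a 0 for them. The 2 libraries shared 7 barcodes, and no member was among these.

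The members' genes have start sites whose upstream letters can be read from RefSeq (build GRCm38.p6). The PU box GAGGAA (reverse complement TTCCTC) is the core of sites bound by PU.1, the ETS factor encoded by Spi1 that directs macrophage genes. It was searched on both strands of the 250 bases before each start. C1qb and C1qc are shown whole because the C1q genes define the members, and 4 leading genes outside the rule are shown over 100 bases because the letters lie close to their start. Capitals mark the PU box, and each stretch runs 5′ to 3′ on the gene's strand up to its start.
C1qb, minus strand of chr4:136886201-136886450: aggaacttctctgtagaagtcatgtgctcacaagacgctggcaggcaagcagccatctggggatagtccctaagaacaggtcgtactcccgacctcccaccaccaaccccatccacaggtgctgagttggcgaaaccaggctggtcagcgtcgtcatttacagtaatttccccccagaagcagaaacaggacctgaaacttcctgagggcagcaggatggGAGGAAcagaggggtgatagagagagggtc
C1qc, minus strand of chr4:136892915-136893164: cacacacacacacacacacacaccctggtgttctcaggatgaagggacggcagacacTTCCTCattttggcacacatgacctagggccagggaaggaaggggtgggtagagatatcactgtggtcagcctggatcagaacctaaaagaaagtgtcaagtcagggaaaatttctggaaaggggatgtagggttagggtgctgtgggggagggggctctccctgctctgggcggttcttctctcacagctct
Fcgr4, plus strand of chr1:171018826-171018925: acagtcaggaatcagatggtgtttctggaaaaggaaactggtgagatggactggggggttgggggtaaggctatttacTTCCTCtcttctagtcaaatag
Lair1, minus strand of chr7:4063205-4063304: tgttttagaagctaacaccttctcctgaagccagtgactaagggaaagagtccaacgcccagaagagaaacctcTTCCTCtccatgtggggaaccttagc
Pf4, plus strand of chr5:90772335-90772434: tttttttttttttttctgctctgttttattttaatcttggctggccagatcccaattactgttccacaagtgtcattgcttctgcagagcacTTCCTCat
Cd300c2, minus strand of chr11:115001881-115001980: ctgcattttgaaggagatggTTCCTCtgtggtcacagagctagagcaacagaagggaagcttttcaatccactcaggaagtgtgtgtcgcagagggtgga
The PU box begins 30 bases before the start of C1qb, 193 before C1qc, 22 before Fcgr4, 26 before Lair1, 8 before Pf4 and 80 before Cd300c2. Of the 15 leading genes named below, 14 had an entry and 10 of these (71.4%) held the PU box, against 23.3% of all 32817 start windows. A gene was counted if any of its start windows held the letters, while the share over all windows counts each window. The shares of genes and of windows given here are therefore not like for like. Of the 10 rule genes, 7 were searched and 5 of these held it. A second motif, AGGAAG with its reverse complement CTTCCT, which shares 5 letters with the PU box, was in 9 of the 14 and in 29.5% of all windows. A match is a description of letters and no evidence of binding. C1qa, Adgre1 and Clec4n had no entry, and Csf1r was not analysed here.

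The 10 rule genes chose the members, so their levels are a description. The complement genes C1qa, C1qb and C1qc, which encode the chains of the C1q recognition molecule, stood at 1996 CPM (UMIs per 1000000 UMIs of the summed members), 2001 and 2460 in WT members. In AD members they stood at 1974, 1742 and 2093. All 3 were detected together in 28 of 34 WT and 108 of 136 AD members, and 4 and 6 members had none of them. Lyz2, the lysozyme of myeloid cells, was the most abundant rule gene at 6279 and 4799 CPM and had a UMI in 34 of 34 and 130 of 136 members. Csf1r, the receptor for the growth factor CSF1, stood at 977.7 and 1069 CPM, and Adgre1, the F4/80 antigen, at 712.9 and 655.2. Mrc1, the mannose receptor, had nearly equal levels of 1400 and 1392 CPM and a UMI in 82.4% of members of both libraries.

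Detection of 2 rule genes differed most between the libraries. Cd68, a lysosomal membrane protein, had a UMI in 79.4% of WT members (62.1 to 91.3) and in 41.2% of AD members (32.8 to 49.9). Fcgr1, the high-affinity IgG receptor CD64, had one in 50.0% (32.4 to 67.6) and 21.3% (14.8 to 29.2). WT members were deeper, and after each cell was thinned to 1000 UMIs the shares were 34.5% and 16.0% for Cd68 and 12.1% and 7.76% for Fcgr1. Over the 20 thinning draws Cd68 had a UMI in 4 to 15 of 29 WT and 12 to 25 of 116 AD members. Fcgr1 had one in 1 to 8 and 3 to 12 of them. Their levels were 351.4 and 215.6 CPM and 122.2 and 78.1 CPM. The log2 ratio was -0.71 (-1.14 to -0.26) for Cd68 and -0.66 (-1.39 to 0.13) for Fcgr1, whose interval includes equal levels. In fibroblast-type barcodes, which should lack both genes (median depths 3898 and 3052 UMIs), Cd68 had a UMI in 3.25% and 2.51% and Fcgr1 in 0.813% and 0.264%. The Cd68 log2 ratio of AD over WT in the other kept cells was -0.16, against -0.71 in members.

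**Figure D1:**
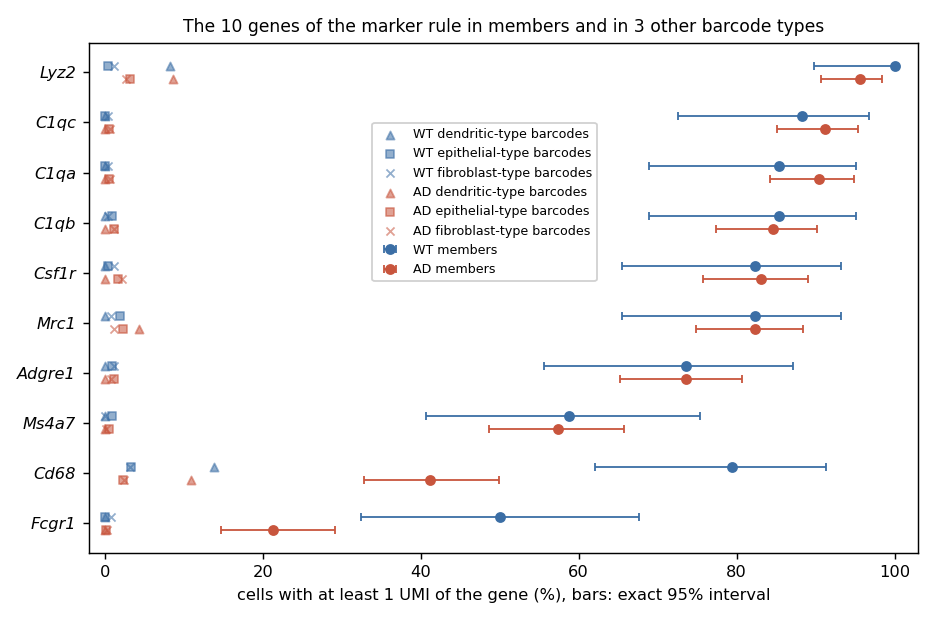
Share of cells with at least 1 UMI of each rule gene (x axis, percent, exact 95% intervals) in WT members (n = 34, blue) and AD members (n = 136, red), with 3 other barcode types as smaller symbols. Intervals of the 2 libraries overlap for all genes but Cd68 and Fcgr1, and the other types lie below 15%.

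Members met the rule with a median of 9 of 10 genes in WT and 8 in AD. At the threshold itself, 1 WT and 5 AD members had just 3 of the genes, and 3 WT and 17 AD barcodes just outside had 2. Of these, 1 and 3 of those inside and 2 and 11 of those outside held a UMI of Tyrobp, Fcer1g or Ctss, myeloid genes the rule did not use. The marker part of the rule alone was met by 40 and 155 barcodes, of which 5 and 12 were left out for dendritic cell genes, 1 and 7 for their epithelial share and 1 and 0 for T cell genes.

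Genes outside the rule set the members apart in the same way in both libraries. The 15 with the highest fold against the other kept cells, taking the lower of the 2 libraries and requiring a UMI in at least 20% of members of each, were Clec4n, Fcrls, Cd163, Clec4a1, Cd300c2, Fcgr4, Clec4a2, C3ar1, Cd300ld, Mpeg1, Clec7a, Pf4, Lair1, Ccl12 and Pilra. Their lower folds ran from 174.2 for Pilra to 344.0 for Clec4n. The list was chosen for these folds, so they are a description. Several encode C-type lectins that sense glycans (Clec4n, Clec4a1, Clec4a2 and Clec7a, the last of which is dectin-1) or paired activating and inhibitory receptors (Cd300c2, Cd300ld, Lair1 and Pilra). Mpeg1, the pore-forming protein perforin-2, had the highest level among them in AD members at 996.4 CPM, with 824.9 in WT members and 2.95 and 4.62 in the other kept cells. C3ar1, the receptor for the complement fragment C3a, stood at 437.9 and 550.0 CPM in members and at 1.40 and 2.42 in the other kept cells.

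**Figure D2:**
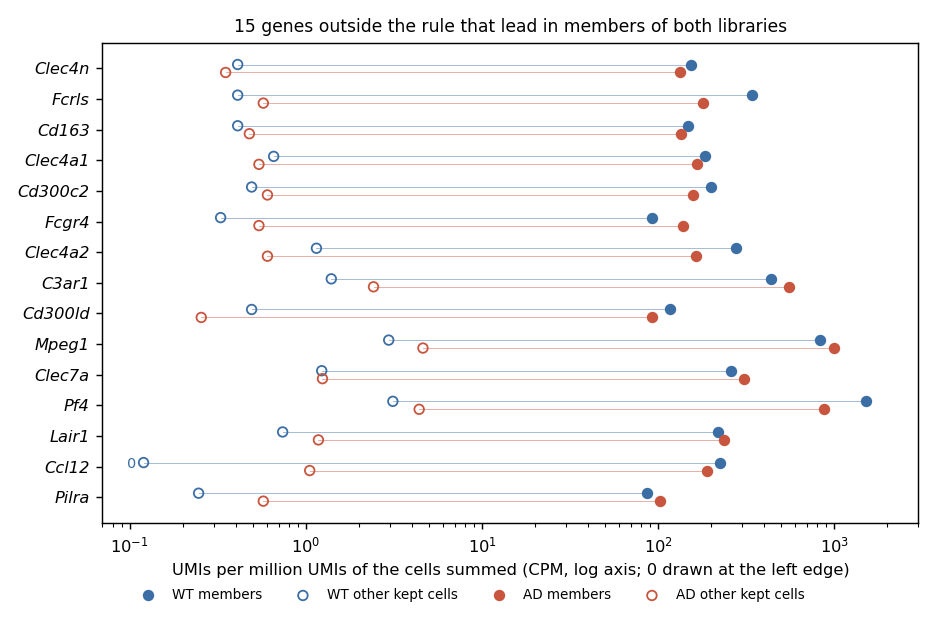
Level of the 15 leading genes (x axis, CPM, log scale) in members (filled) and in the other kept cells (open) of the WT (blue) and AD (red) library. Member levels lie between 86.6 and 1502 CPM and the levels in other cells below 5.

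Members were set beside dendritic-type barcodes, 36 in WT and 46 in AD. These had at least 1 UMI of Flt3, Xcr1 or Zbtb46, all of H2-Aa, H2-Ab1 and Cd74, and none of the first 5 rule genes, so they differ from members by construction in those genes. They also met the limits on lymphocyte and epithelial genes, and at most 10% of their UMIs came from Igha and Jchain. Cd74, the MHC class II invariant chain, stood at 15770 and 14208 CPM in members and at 11333 and 10773 in dendritic-type barcodes. Apoe, a lipid carrier, stood at 10806 and 11497 CPM in members and at 137.6 and 244.4 in dendritic-type barcodes, although the rule did not use it. Cx3cr1, the fractalkine receptor, had a UMI in 61.8% and 61.0% of members and in 2.78% and 2.17% of dendritic-type barcodes. Cst3, cystatin C, ran the other way, at 2368 and 1261 CPM in members and 4215 and 3707 in dendritic-type barcodes. Of the 15 leading genes, Mpeg1 had the highest levels in dendritic-type barcodes, at 143.8 and 239.2 CPM. These were below its 824.9 and 996.4 CPM in members but above its 2.95 and 4.62 in the other kept cells. Fcrls, Cd163, Pf4 and Ccl12 had a UMI in 35.3% to 73.5% of WT and 27.9% to 61.8% of AD members. None of the 4 had one in dendritic-type barcodes, which allows a share of barcodes with a UMI of up to 8.33% in WT and 6.52% in AD and does not limit the share expressing the gene.

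Members made up 2.19% (1.52 to 3.05) of kept WT cells and 2.90% (2.44 to 3.42) of kept AD cells. The ratio of the shares was 1.32, and its interval of 0.902 to 1.99 includes equal shares. Under the other cell filters and marker rules tried the ratio lay between 1.10 and 1.64.

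Genes of other cell types were present in members and differed between the libraries. Igha and Jchain, which plasma cells make in bulk, gave 36 UMIs in 19 of 34 WT members and 9965 UMIs in 136 of 136 AD members, with medians of 1 and 13 per cell. In 3 AD members they made up 20.4% to 37.6% of all UMIs, and these cells held 8055 of the 9965. In fibroblast-type barcodes, which do not make it, Igha had a UMI in 45.1% in WT and 100% in AD, beside 52.9% and 100% of members. The goblet cell genes Muc2 and Mptx1 gave 23 UMIs in 18 WT members and 464 in 128 AD members. A set of 8 fibroblast genes (Col1a1, Col1a2, Col3a1, Dcn, Lum, Dpt, Mgp and Sparc) gave 19 UMIs in WT and 768 in AD members, of which 85.7% lay in 5 cells, and 6 AD members but no WT member held 10 or more. In all, 8 AD members met 1 or both of these limits. Summed T cell genes were low, at 8 and 24 UMIs, as were B cell genes at 8 and 42, mast cell genes at 1 and 11 and eosinophil genes at 0 and 4. Dendritic cell genes gave more, at 136 and 282 UMIs in 21 of 34 WT and 87 of 136 AD members. Of these, 41 were Cd209a UMIs of 1 WT member. Neutrophil genes gave 62 and 163 UMIs. No doublet caller was run.

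Members were laid out between a Ccr2 side and a Cd163 side. Ccr2 or Ly6c2 without Cd163, Lyve1 or Folr2 had a UMI in 7 of 34 WT members (20.6%, 8.70 to 37.9) and in 28 of 136 AD members (20.6%, 14.1 to 28.4). The reverse held for 11 WT (32.4%, 17.4 to 50.5) and 35 AD members (25.7%, 18.6 to 33.9). Both kinds were seen in 2 and 12 members, and 14 and 61 members showed neither. The classes rest on 1 or more UMIs, so they are described as a range. Whether members form a range or separate types was not tested. After thinning to 1000 UMIs the median over 20 draws was 5 and 7 of 29 WT members and 19.5 and 16 of 116 AD members, in the order Ccr2 side, Cd163 side.

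Ccr2 itself had a UMI in 9 WT (26.5%) and 30 AD members (22.1%), against 0 and 0.132% of fibroblast-type barcodes. Its level was 376.8 CPM (295.9 to 473.1) in WT and 188.4 CPM (155.0 to 226.9) in AD members. Ly6c2, the surface antigen of classical monocytes, had a UMI in 5.88% and 9.56% of members, but also in 22.3% of AD epithelial-type and 9.64% of AD fibroblast-type barcodes, so its AD share is not above background. In WT, the 7 members on the Ccr2 side and the 2 with both kinds all had Ccr2. In AD, these classes held 28 and 12 members, more than the 30 with Ccr2. Some AD members were therefore classed by Ly6c2 alone, so the class shares of the libraries are not like for like. Cd163 had a UMI in 35.3% and 27.9% of members and in under 0.5% of either background type. Lyve1, a hyaluronan receptor of some resident macrophages, was rarer at 5 of 34 and 10 of 136. Folr2, a folate receptor, had a UMI in 0 of 34 WT members, which allows a share with a UMI of up to 8.82%, and in 3 AD members.

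Along this range 1944 genes had at least 10 UMIs over the 2 sides in each library. Of these, 58 were at least 2-fold higher on the Ccr2 side in both libraries, 140 were at least 2-fold higher on the Cd163 side in both, and 46 were 2-fold apart in opposite directions. Of the 8 AD members rich in fibroblast or plasma cell genes, 5 lay on the Ccr2 side and 2 on the Cd163 side, and 1 of the 5 was the deepest AD member with 30485 UMIs. Without them the counts were 67, 109 and 47 of 1900 genes. The genes named here lead when ranked by the smaller of the 2 libraries' ratios, or are listed genes, and were chosen after their values were seen. Ccl8, a chemokine, had 0 and 2 UMIs on the Ccr2 side and 123 and 132 on the Cd163 side, where 4 WT and 18 AD cells carried it. Cd209f, a lectin of the DC-SIGN family, had 0 and 0 UMIs against 12 and 25. The carbonyl reductase Cbr2 had 0 and 3 against 16 and 37, and the matrix protease gene Mmp9 had 0 and 2 against 25 and 37. Igf1, a growth factor, stood at 85.0 and 73.3 CPM on the Ccr2 side and at 829.0 and 815.1 CPM on the Cd163 side. Mrc1 stood at 782.4 and 403.1 CPM on the Ccr2 side and at 2980 and 2212 on the Cd163 side.

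On the Ccr2 side the calcium-binding gene S100a4 had 90 and 30 UMIs, against 0 and 3 on the Cd163 side. Fibronectin (Fn1) had 96 and 42 against 0 and 3, although 90 of the WT UMIs lay in a single cell. Plac8, a gene of classical monocytes, had 18 and 32 against 0 and 8. F13a1, also listed as a monocyte gene, went the other way, at 102.1 and 51.3 CPM on the Ccr2 side against 355.3 and 196.5. Dnase1l3, listed as a resident macrophage gene, had 0 and 189 UMIs on the Ccr2 side against 5 and 98. Its log2 ratios of -3.67 and 0.95 thus had opposite signs, and the 5 WT UMIs lay in 1 cell. The cytokine Il1b stood at 714.4 and 1114 CPM on the Ccr2 side and at 256.6 and 254.7 on the Cd163 side. In members with neither kind it stood at 354.0 and 1347 CPM, so in AD its level was not highest on the Ccr2 side. C1qa was present on both sides, at 884.4 and 1436 CPM on the Ccr2 side and 2862 and 2402 on the Cd163 side. It had a UMI in 3 of 7 WT and 23 of 28 AD members on the Ccr2 side. On the Cd163 side it had one in 11 of 11 and 34 of 35. Without the 7 AD members rich in fibroblast or plasma cell genes, the AD levels of C1qa were 1813 and 2381 CPM. The AD difference was then smaller, at a log2 ratio of -0.39. Cx3cr1 stood at 289.1 and 322.5 CPM on the Ccr2 side and at 651.3 and 655.0 on the Cd163 side. Lyz2 and Cd74 lay slightly higher on the Ccr2 side, with log2 ratios of 0.70 and 0.51 and of 0.31 and 0.26. Retnla, a secreted protein induced by IL-4, went in opposite directions in the 2 libraries, with log2 ratios of 2.99 and -1.56 (-0.62 without those 7 AD members), and 82.7% of its WT UMIs lay in 1 cell.

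**Figure D3:**
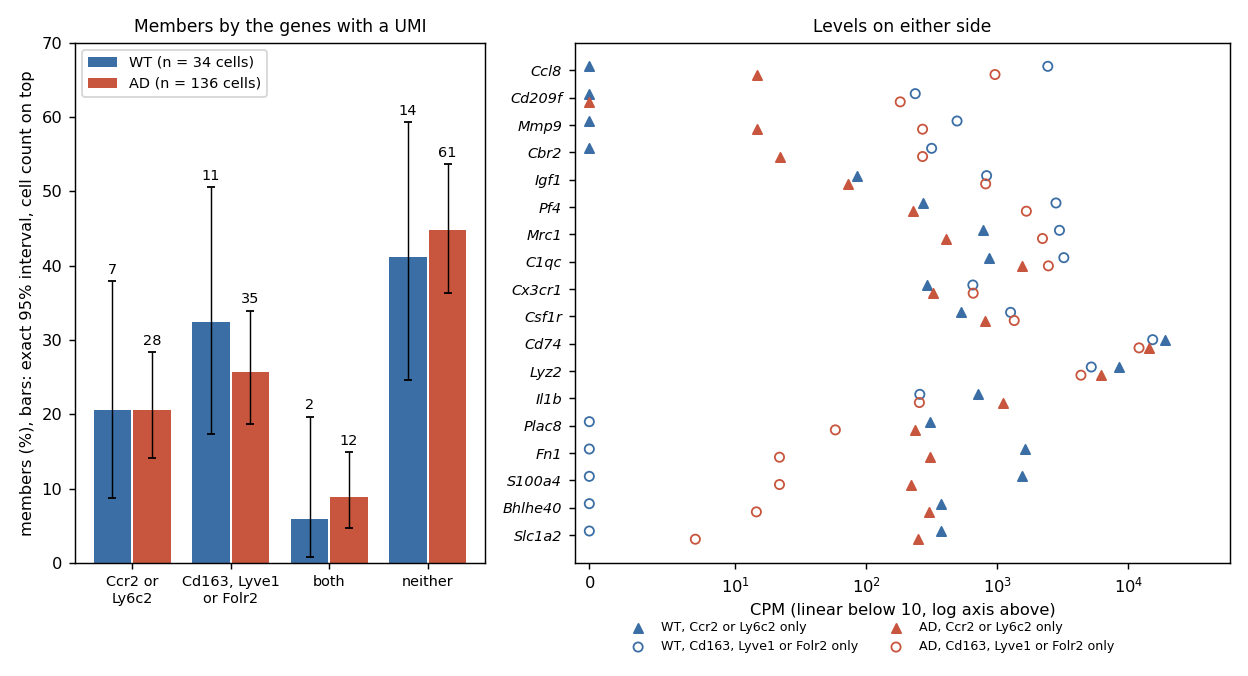
Left, share of members (y axis, percent, exact 95% intervals, cell counts on top) with a UMI of Ccr2 or Ly6c2 only, of Cd163, Lyve1 or Folr2 only, of both or of neither. Right, CPM of 18 genes on the Ccr2 side (triangles) and the Cd163 side (circles) of the WT (blue) and AD (red) library, in which Ccl8 to Pf4 lie higher on the Cd163 side and Il1b to Slc1a2 higher on the Ccr2 side in both libraries.

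Counting, in cells thinned to 1000 UMIs, how many genes of a 25-gene monocyte list and a 30-gene resident macrophage list had a UMI does not need the classes above. The mean number of monocyte genes per cell was 1.74 in WT and 1.85 in AD members, and that of resident genes was 5.06 and 4.70. Cycling cells were few, since 1 WT and 6 AD members had at least 3 of 10 mitotic genes, or 2.94% (0.0744 to 15.3) and 4.41% (1.64 to 9.36).

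Between AD and WT members, 2653 genes had at least 50 UMIs over both libraries. Of these, 154 (5.8%) were at least 2-fold higher in CPM in the AD library and 75 (2.83%) at least 2-fold lower, and the median log2 ratio was 0.008. These are counts past a fold between 2 libraries and not tests. By the naming rule the 12 highest were Mgp, Sass6, Il22ra2, Sparc, Il1rn, Cxcl1, Plac9, Dmxl2, Pdpn, Gde1, Magi3 and Thbs1, and the 12 lowest Zc3h7a, S100a11, Fgfr2, Sh3bgrl3, Taf4b, Capg, Atp5k, Cp, Zfp710, Cul1, Dapk1 and Tmsb10.

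Il1rn, which encodes the IL-1 receptor antagonist, had 1 UMI in 1 WT member and 53 UMIs in 24 AD members, a ratio of 17.7 (3.04 to 711). Its 5 richest cells held 54.7% of the AD UMIs, and with each cell weighted equally the log2 ratio was 1.17 in place of 3.57. Epithelial-type barcodes also carried it, at 42.9% and 62.4% of barcodes, while fibroblast-type barcodes held it at 0 and 1.85%, against 17.6% of AD members. Il10, the cytokine that restrains gut macrophages, had 1 UMI in WT and 41 UMIs in 18 AD members, a ratio of 13.7 (2.32 to 553). Its AD share of 13.2% stood beside 1.45% of fibroblast-type and 1.01% of epithelial-type barcodes. Cxcl1, a neutrophil chemokine, had 1 UMI in WT and 50 UMIs in 15 AD members, a ratio of 16.7 (2.86 to 671). Its AD share of 15 in 136 members was below the 14.1% of fibroblast-type barcodes. Dendritic-type barcodes held it at 2.78% in WT and 0 in AD. These backgrounds differ, so its share is read neither as expression nor as background. Thbs1, the adhesion protein thrombospondin 1, had 3 UMIs in 3 WT and 67 in 33 AD members, a ratio of 7.44 (2.44 to 37.0), and its log2 ratio of 2.68 was 0.81 with each cell weighted equally. Its shares of 8.82% and 24.3% were below the 38.6% and 39.2% of fibroblast-type barcodes but above the 2.78% and 0 of dendritic-type barcodes. They too are read neither as expression nor as background. The log2 ratios of these 4 genes in the other kept cells were 1.08, 0.99, 0.12 and 0.40.

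Several other genes at the top of the ranking had most of their UMIs in few cells, but Sass6 did not. Mgp, matrix Gla protein, had 0 UMIs in WT and 110 in AD members, at least 12.2-fold higher against a floor of 3 UMIs over the WT members, but 5 cells held 90.0% of them. Sparc, a matrix protein of fibroblasts, had 2 and 97 UMIs with 90.7% in 5 cells. Without the 8 AD members rich in fibroblast or plasma cell genes its log2 ratio was -0.05 in place of 3.70, and that of Plac9 0.77 in place of 3.10. Il22ra2, a soluble receptor that binds IL-22, had 1 UMI in WT and 100 in AD members, 80 of them in 1 cell and 20 in another. After thinning to 1000 UMIs, the log2 ratios of Dmxl2, Pdpn and Gde1 were 0.07, 0.81 and 0.50, in place of 2.86, 2.83 and 2.78. None of the 3 was then 2-fold higher. Sass6, a centriole protein, had 0 UMIs in WT and 68 in 49 AD members, at least 7.56-fold higher against the same floor, and its log2 ratio in the other kept cells was 3.61. Its AD share of 36.0% lay between the 32.9% of fibroblast-type and the 41.1% of epithelial-type barcodes and is not read as expression. The part of plasma cell, goblet and fibroblast RNA in these differences was not tested beyond the values without those members.

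Among the lower genes, Zc3h7a, which encodes a zinc finger protein, had 876 UMIs in WT and 311 in AD members, a log2 ratio of -3.08 (-3.27 to -2.89). A single WT cell held 81.1% of the 876, and without the richest cell of each library the log2 ratio was -0.96. In the other kept cells it was -1.29. Fgfr2, a fibroblast growth factor receptor, Taf4b, a transcription initiation subunit, and Cul1, a ubiquitin ligase scaffold, had 81.0%, 68.5% and 53.1% of their WT UMIs in 1 cell, and their log2 ratios moved from -2.08, -1.78 and -1.56 to -0.64, -0.76 and -0.64 without the richest cell of each library. Without the deepest 10% of members the log2 ratio of Zc3h7a was -0.06, that of Fgfr2 0.46 and that of Taf4b -0.81, so none of these 3 was then 2-fold lower. That of Capg moved from -1.74 to -0.14 under the same setting. S100a11, a calcium-binding protein, had 70 and 49 UMIs, and its log2 ratio of -2.10 was -1.57 without the richest cells, -1.08 after thinning and -0.95 without the deepest 10% of members. The S100a11 log2 ratio in the other kept cells was -0.96. Sh3bgrl3 had 73 UMIs in 16 WT and 55 in 34 AD members, and Tmsb10, an actin-binding peptide, 162 in 17 and 180 in 51. Their log2 ratios were -1.99 and -1.43 in members and -0.99 and -0.82 in the other kept cells, and -1.07 and -0.84 in members after thinning. Cp, the copper ferroxidase ceruloplasmin, had 28 UMIs in each library, a log2 ratio of -1.58 in members against 0.12 in the other kept cells.

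**Figure D4:**
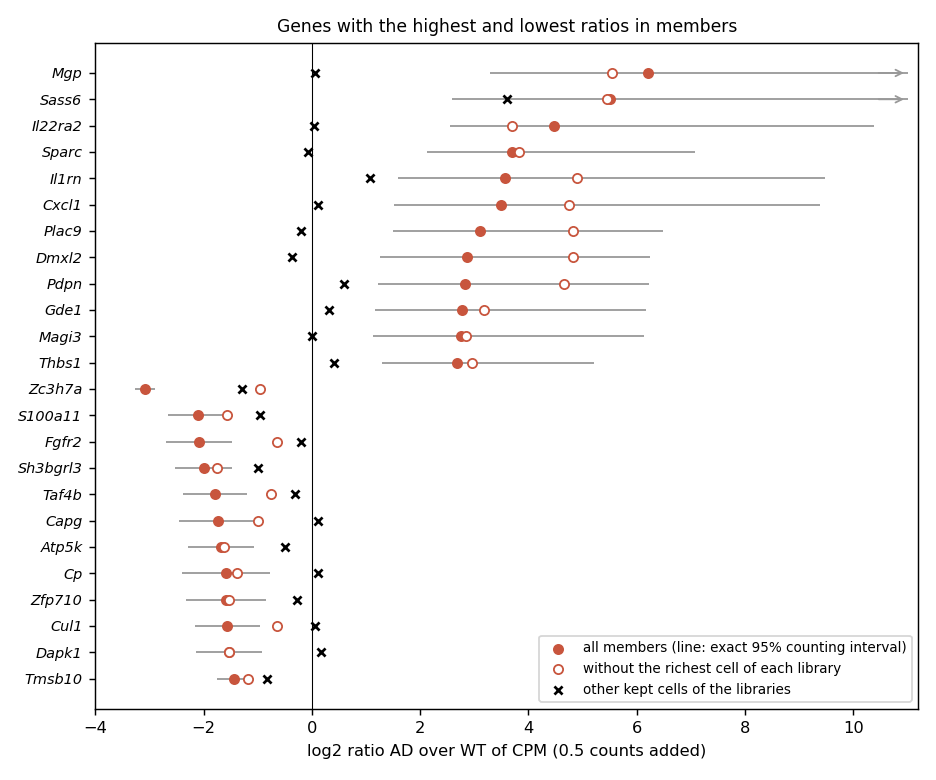
log2 ratio of AD over WT (x axis) for the 12 highest and 12 lowest named genes in all members (filled, with exact 95% counting intervals; arrows where no upper bound exists), without the richest cell of each library (open), and in the other kept cells (crosses). Sass6 is also above 3 in the other kept cells, and Zc3h7a moves from -3.08 to -0.96.

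Function lists were read against all 5320 genes with at least 20 UMIs, of which 1057 (19.9%) were at least 1.5-fold higher and 855 (16.1%) at least 1.5-fold lower in AD members, with a median log2 ratio of 0. Rule genes were left out of these lists. In 24 lists the median ran from -0.43 for microbe sensing to 0.40 for iron and lipid handling. These medians depend on the processing: over 15 alternatives, 18 of the 24 took the opposite sign at least once, and thinning also left fewer genes measured. The 6 that did not were MHC class I and II, IL-10 and TGF-beta, lipid, iron and early response genes. The range over the alternatives follows each median as "range".

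Genes of MHC class II presentation were abundant in members of both libraries. Of 10 measured, 3 were at least 1.5-fold higher and 1 lower, with a median log2 ratio of -0.15 (range -0.28 to -0.01). H2-Ab1, a class II chain, stood at 8865 CPM (8454 to 9292) in WT and 8026 (7799 to 8258) in AD members. Cd86, a costimulatory ligand, had 80 and 447 UMIs in 19 and 82 members, or 407.4 and 758.8 CPM. Its log2 ratio was 0.89 (0.55 to 1.26), against -0.27 in the other kept cells.

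Growth factor receptors and regulators were higher in 7 and lower in 3 of 25, median 0.29 (range -0.26 to 0.47, the lowest after thinning with 15 genes measured). Irf4, a transcription factor of type 2 myeloid programmes, had 1 and 31 UMIs, a ratio of 10.3 (1.72 to 421), and the nuclear receptor Nr4a3 had 7 and 82. Of 29 general myeloid genes, 2 were higher and 3 lower, median 0.01 (range -0.40 to 0.24). Among them Maf, a transcription factor of resident macrophages, stood at 804.6 and 504.1 CPM with a log2 ratio of -0.68 (-0.96 to -0.39).

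Inflammatory genes were higher in 7 of 15 and lower in 1, median 0.36 against 0 for all genes (range -0.03 to 0.99). The lowest was after thinning, with 8 genes measured. Il1b had 85 UMIs in 11 WT and 522 UMIs in 63 AD members, or 432.8 CPM (345.7 to 535.2) and 886.1 CPM (811.7 to 965.5). Its share of members was 32.4% and 46.3% (15.5% and 34.9% after thinning), against 0.813% and 0.793% of fibroblast-type barcodes. In the other kept cells its log2 ratio was -1.61. Nfkb1, an NF-kappaB subunit, had 72 and 455 UMIs in 19 and 87 members, a ratio of 2.11 (1.64 to 2.74), and without the richest cells its log2 ratio was 1.09 in place of 1.07. Ptgs2, the inducible cyclooxygenase, had 7 and 110 UMIs, with 43.6% of the AD UMIs in 1 cell. Of 18 IL-10 and TGF-beta genes, 4 were higher and 1 lower, median 0.28 (range 0.08 to 0.53), and these include Il1rn and Il10 given above.

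Chemokines and their receptors had 4 of 16 higher and 3 lower, median -0.11 (range -0.16 to 0.29). Ccl8 had 136 and 216 UMIs, a log2 ratio of -0.92, but 61.0% of the WT UMIs lay in 1 cell and the ratio without the richest cells was 0.16. Monocyte genes were higher in 3 of 16 and lower in 6, median -0.22 (range -0.70 to 0.50, positive without the deepest 10% of members and without the richest cells). Clec4d, a lectin, had 1 and 33 UMIs, S100a4 117 and 142, F13a1, coagulation factor XIII, 37 and 47, and Ccr2 74 and 111. The log2 ratios of S100a4 and F13a1 were -1.31 and -1.24, and the ratio of Ccr2 was 0.50 (0.369 to 0.680). Resident macrophage genes were higher in 4 of 22 and lower in 6, median -0.07 (range -0.18 to 0.24). Dnase1l3, a secreted DNase, had 78 UMIs in 8 WT and 682 in 51 AD members, a ratio of 2.92 (2.30 to 3.73), with 69.2% of the WT UMIs in 1 cell.

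Complement genes were higher in 5 of 12 and lower in 1, median 0.39 (range -0.38 to 0.57, the lowest after thinning with 7 genes measured). C3, the central complement component, had 6 and 59 UMIs, and Itgax, the CD11c integrin of complement receptor 4, had 17 and 97 UMIs in 4 and 30 members. Serping1, the C1 inhibitor, had 1 and 31 UMIs, of which 38.7% lay in 1 AD cell. C3 and Serping1 had a UMI in 75.3% and 87.2% of AD fibroblast-type barcodes, against 11.8% and 8.09% of AD members. Whether members express them was not tested. Fc receptor genes were lower in 3 of 12 and higher in none, median -0.17 (range -0.55 to 0.05). Fcgr2b, the inhibitory IgG receptor, stood at 1090 and 643.3 CPM, and Fcer1g, the shared signalling chain, at 1604 and 1007 CPM. Their log2 ratios were -0.76 and -0.67 in members and -0.49 and -1.22 in the other kept cells. Uptake genes had 4 of 27 higher and 6 lower, median -0.15 (range -0.49 to 0.30). The integrin subunit gene Itgav had 29 and 192 UMIs, a ratio of 2.21 (1.49 to 3.38), and the scavenger receptor Stab1 91 and 151 UMIs, a log2 ratio of -0.86.

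Lipid genes were higher in 6 of 19 and lower in 1, median 0.40 (range 0.20 to 0.65), and lysosome genes higher in 6 of 29 and lower in 1, median 0.07 (range -0.04 to 0.19). Lipa, the lysosomal acid lipase, had 20 UMIs in 13 WT and 145 in 53 AD members, a ratio of 2.42 (1.51 to 4.07), against a log2 ratio of 0.25 in the other kept cells. Gpnmb, a glycoprotein of lipid-laden macrophages, had 5 UMIs in 2 WT and 70 in 18 AD members, a ratio of 4.67 (1.91 to 14.8). Iron genes were higher in 5 of 15 and lower in 1, median 0.40 (range 0.04 to 0.50), and Fth1, the ferritin heavy chain, stood at 4685 and 6181 CPM. Matrix and growth genes were balanced at 4 of 17 higher and 4 lower, median 0.06 (range -0.05 to 0.64), although the collagenase gene Mmp13 had 23 UMIs in 5 WT and 189 in 31 AD members and the elastase gene Mmp12 2 and 41.

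Genes tied to Alzheimer's disease or to microglia around plaques were higher in 4 of 29 and lower in 3, median -0.08 (range -0.21 to 0.12). Apoe, the strongest common risk gene, stood at 10806 CPM (10351 to 11275) and 11497 CPM (11225 to 11774). Trem2, a lipid receptor of microglia and tissue macrophages, had 10 UMIs in 6 WT and 44 in 31 AD members, a ratio of 1.47 (0.727 to 3.27) whose interval includes 1. Tyrobp, its adaptor, stood at 1324 and 906.4 CPM, a log2 ratio of -0.55 in members and -1.32 in the other kept cells. App, the amyloid precursor protein gene, had a UMI in 82.4% and 61.8% of members and stood at 606.0 and 444.7 CPM, a log2 ratio of -0.45 against -0.20 in the other kept cells. Whether transgene RNA was counted under App is not given in the sources used here. Lpl, lipoprotein lipase, had 94 and 114 UMIs, with 86.2% of the WT and 55.3% of the AD UMIs in 1 cell each. Sucnr1, the succinate receptor, had 0 UMIs in members of either library, which allows a share of members with a UMI of up to 8.82% and 2.21% at this depth.

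Of 15 interferon genes measured, 2 were higher and 2 lower, median -0.17 (range -0.25 to 0.36). Ifitm2 had 87 and 105 UMIs, a log2 ratio of -1.31, and -1.10 in the other kept cells. Type 2 response genes were higher in 2 of 10 and lower in 5, median -0.40 (range -0.70 to 0.67, the highest without the deepest 10% of members), of which Fn1 and Retnla had 93.8% and 82.7% of their WT UMIs in 1 cell and log2 ratios of -1.12 and -0.85 that became 2.07 and 1.02 without the richest cells. Microbe sensing genes were higher in 2 of 14 and lower in 5, median -0.43 (range -0.45 to 0.41). Metabolism genes were higher in 2 of 14 and lower in 3, median -0.08 (range -0.37 to 0.18), and the hexokinase gene Hk3 had 3 and 45 UMIs. Eicosanoid genes were higher in 1 of 12 and lower in 3, median -0.11 (range -0.25 to 0.01), and MHC class I genes higher in 1 of 9, median 0.05 (range 0.03 to 0.32). Proliferation genes were higher in 3 of 10 and lower in 1, median 0.22 (range -0.33 to 0.78, the lowest without the deepest 10% of members), with Top2a at 0 and 31 UMIs, at least 3.44-fold higher against the floor of 3.

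Early response genes that tissue digestion is known to induce were higher in 5 of 31 and lower in none, median 0.05 (range 0.02 to 0.34). Fosb stood at 580.5 and 1137 CPM and Klf6 at 1212 and 2144 CPM, with log2 ratios of 0.97 and 0.82 in members and 0.53 and 0.65 in the other kept cells. Their part in the inflammatory genes above was not tested.

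**Figure D5:**
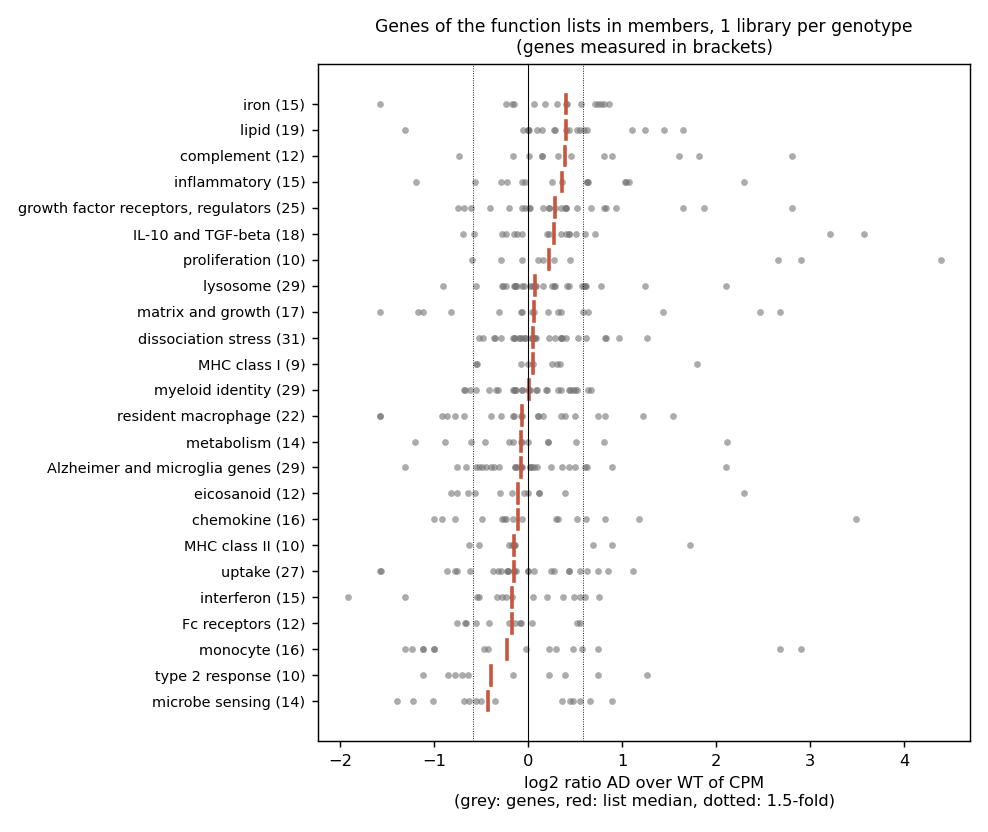
log2 ratio of AD over WT in members (x axis) for each gene (grey) of the 24 function lists with at least 20 UMIs, with the list median (red) and the 1.5-fold limits (dotted). Medians lie between -0.43 and 0.40, inside the 1.5-fold limits, and single genes reach 4.39.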

How the data were processed

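Colon cells of 1 WT and 1 AD library were measured by 10x single-cell RNA sequencing. Whole-number UMI counts were deposited as 1 matrix per library, and the submitters' processing notes name Cell Ranger 3.0.1, STAR, Seurat 3.0.2 and mm10. From these counts, barcodes were filtered, members chosen by the rule above, and their UMIs summed per library and scaled to CPM (with numpy 2.4.6 and pandas 2.3.3 under Python 3.11.15, exact intervals from scipy 1.17.1, plots from matplotlib 3.10.9). Log2 ratios add 0.5 counts to each sum. Groups come from the genotype label, and no test was run between them.

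Intervals for counts, shares and ratios are exact at 95% and cover counting error only. A count of 0 is read against a floor of 3 counts. Shares were repeated on cells thinned to 1000 UMIs over 20 draws, leaving out 5 WT and 20 AD members below that depth. No doublet caller was run. Fibroblast-type barcodes had at least 3 of 6 fibroblast genes, no Ptprc UMI and under 0.3% epithelial UMIs. Epithelial-type barcodes had at least 1% epithelial UMIs and no Ptprc UMI.

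Members and gene lists were chosen with earlier results of these data known. Named genes were the 12 highest and 12 lowest log2 ratios past 2-fold with at least 50 UMIs. Left out were sex-linked, haemoglobin, ribosomal, mitochondrial, immunoglobulin and T cell receptor genes, unnamed models and the markers listed for other cell types. Mgp and Sparc were not on those marker lists and so could be named, although the fibroblast set above holds them. Also named were the 15 leading genes, at most 4 genes per list plus its defining genes, the rule genes, and Sucnr1, App, Trem2 and Apoe. The ratio and interval code was tested on simulated data. Cell filters, member rules, scaling and count minimums were varied, and 4 of these alternatives were chosen after seeing the data.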

Additional observations from a re-analysis of the deposited data

Results flagged for a closer look

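Barcodes above the mitochondrial limit were not used in the main comparisons, yet 11 WT and 8 AD barcodes there met the rest of the macrophage rule. Their median depths were 1421 and 696 UMIs. They were set aside for a closer look because macrophage genes appear in barcodes that the main comparisons did not use. Only the alternative with a mitochondrial limit of 50%, with 45 WT and 144 AD members, took them in. Whether they are damaged cells was not tested.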

How the results depend on the processing

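The ratio of member shares stayed between 1.10 and 1.64 under the alternatives. The count of genes at least 2-fold higher in AD members, 154 as reported, was 102 without members holding 2 or more fibroblast, endothelial or mast cell UMIs and 85 when Lyve1 and Adamdec1 were not counted for that limit (chosen after seeing the data). It was 247 with each cell weighted equally, 19 in cells thinned to 1000 UMIs, 517 at a minimum of 20 UMIs and 54 at 100 UMIs. The count at least 2-fold lower, 75 as reported, was 48 with a mitochondrial limit of 50%, 128 with each cell weighted equally, 11 after thinning, 42 without the deepest 10% of members, 304 at 20 UMIs and 32 at 100 UMIs. It was 27 with each gene's richest cell in each library left out (chosen after seeing the data), a setting that moved the median log2 ratio of all tested genes from 0.01 to 0.15. Under the same setting the count at least 2-fold higher was 229. Among named genes, 5 log2 ratios changed sign. Il22ra2 was -2.85 without members holding 2 or more such UMIs, and Sparc was -0.05 without the 8 AD members rich in fibroblast or plasma cell genes (chosen after seeing the data). Fgfr2 was 0.03 at a mitochondrial limit of 10%, 0.19 at an epithelial limit of 0.1% and 0.46 without the deepest 10% of members. The cause of these changes was not tested. Of 24 list medians, 18 took the opposite sign under at least 1 of 15 alternatives. Of the other values for named genes, 310 kept within the limits set and 45 moved. No paired analysis was possible because there is 1 library per genotype. Depth limits the WT side most, with 34 members and 196382 UMIs.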
